A study of Mus musculus with 10 samples.

Results

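The genes described here carry glucose into the cell, break it down to pyruvate and lactate, and store it as and release it from glycogen. They were chosen as a list of 39 mouse gene symbols, and a gene was kept where at least 1 probe set of the array is annotated with that symbol alone. Where several probe sets qualified, the one with the highest mean over all 10 arrays was used. This gave 35 of the 39 genes, among 19938 genes measured by the same rule. Gpi1, Pfkfb1, Gapdh and Eno1 had no probe set with their symbol alone and were not analysed here. For Gapdh, 25 probe sets carry its symbol together with others.

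RNA came from male C57BL/6 mice aged 3 months, either VAChT KD or WT, without treatment. VAChT, encoded by Slc18a3, is the transporter that loads acetylcholine into synaptic vesicles, and the series title gives the knockdown as KDHOM. Ventricular cardiomyocytes were measured on 3 VAChT KD and 3 WT Affymetrix arrays, and whole hearts on 2 VAChT KD and 2 WT arrays. Each array held RNA pooled from 2 samples, so the spread between arrays is that of pools and not of single animals, and nothing in the labels ties arrays to separate litters or days. The KD against WT question was asked within cardiomyocytes and within hearts. Values are log2 intensities as the authors deposited them, and a difference of 1 on this scale is a doubling.

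Glucose enters the heart muscle cell through facilitative transporters of the Slc2a family, of which the insulin-responsive Slc2a4 is the main form in the adult heart. Hexokinase traps it as glucose phosphate, which either goes down glycolysis through the control point phosphofructokinase or is linked into glycogen. Many of these steps have several isoforms, a muscle form and forms typical of other tissues, so that both the step and the isoform matter in a heart, where muscle and other cells are mixed.

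Arrays of a group correlated at 0.992 to 0.995 over all genes, except for the KD hearts at 0.98. Array medians over all probe sets lay between 5.82 and 5.93 in cardiomyocytes and between 7.25 and 7.31 in hearts, so values were set side by side only within each kind of sample unless stated. Slc18a3 itself did not separate the genotypes: its probe set read 6.22, 6.52 and 6.21 in KD cardiomyocytes against 6.06, 6.37 and 6.04 in WT cardiomyocytes, and 7.31 and 7.84 in KD hearts against 7.34 and 7.72 in WT hearts. The summed level of 10 cardiomyocyte markers was 16.70 to 16.74 on the log2 scale in cardiomyocytes and 16.96 to 17.11 in hearts. In KD heart 1 the summed level of 10 thymocyte and T cell markers was 13.68 on the log2 scale, against 10.33 in KD heart 2 and 10.13 and 10.47 in the WT hearts. The precision is set by the number of arrays: the median 95% confidence interval of a gene's difference reached 0.25 to either side in cardiomyocytes (1.19-fold) and 0.31 in hearts (1.24-fold).

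In cardiomyocytes the glucose and glycogen genes differed little between genotypes. Of the 35 genes, 16 were higher and 19 lower in KD than in WT cells, with a median difference of −0.02. Over all genes 50.0% had a difference below 0. In hearts, 28 of the 35 genes were lower in KD than in WT and 7 higher, with a median difference of −0.18, where 47.4% of all genes had a difference below 0 and the median over all genes was 0.01. No gene passed the test in either comparison: limma with Benjamini-Hochberg adjustment at 0.05 called 0 of 19938 genes (0%) in cardiomyocytes, where 419 (2.10%) had an unadjusted p under 0.05, and 0 (0%) in hearts, where 982 (4.93%) did. Among the 35 genes, 1 in cardiomyocytes had such an unadjusted p, Pgam1, which was higher in KD, where 0.988% of all genes were higher and 1.11% lower at that p. In hearts 3 had one, Pfkfb2, Phka1 and Ugp2, all lower in KD, where 2.49% of all genes were lower and 2.44% higher. The differences below are therefore given as values with their errors.

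**Figure D1:**
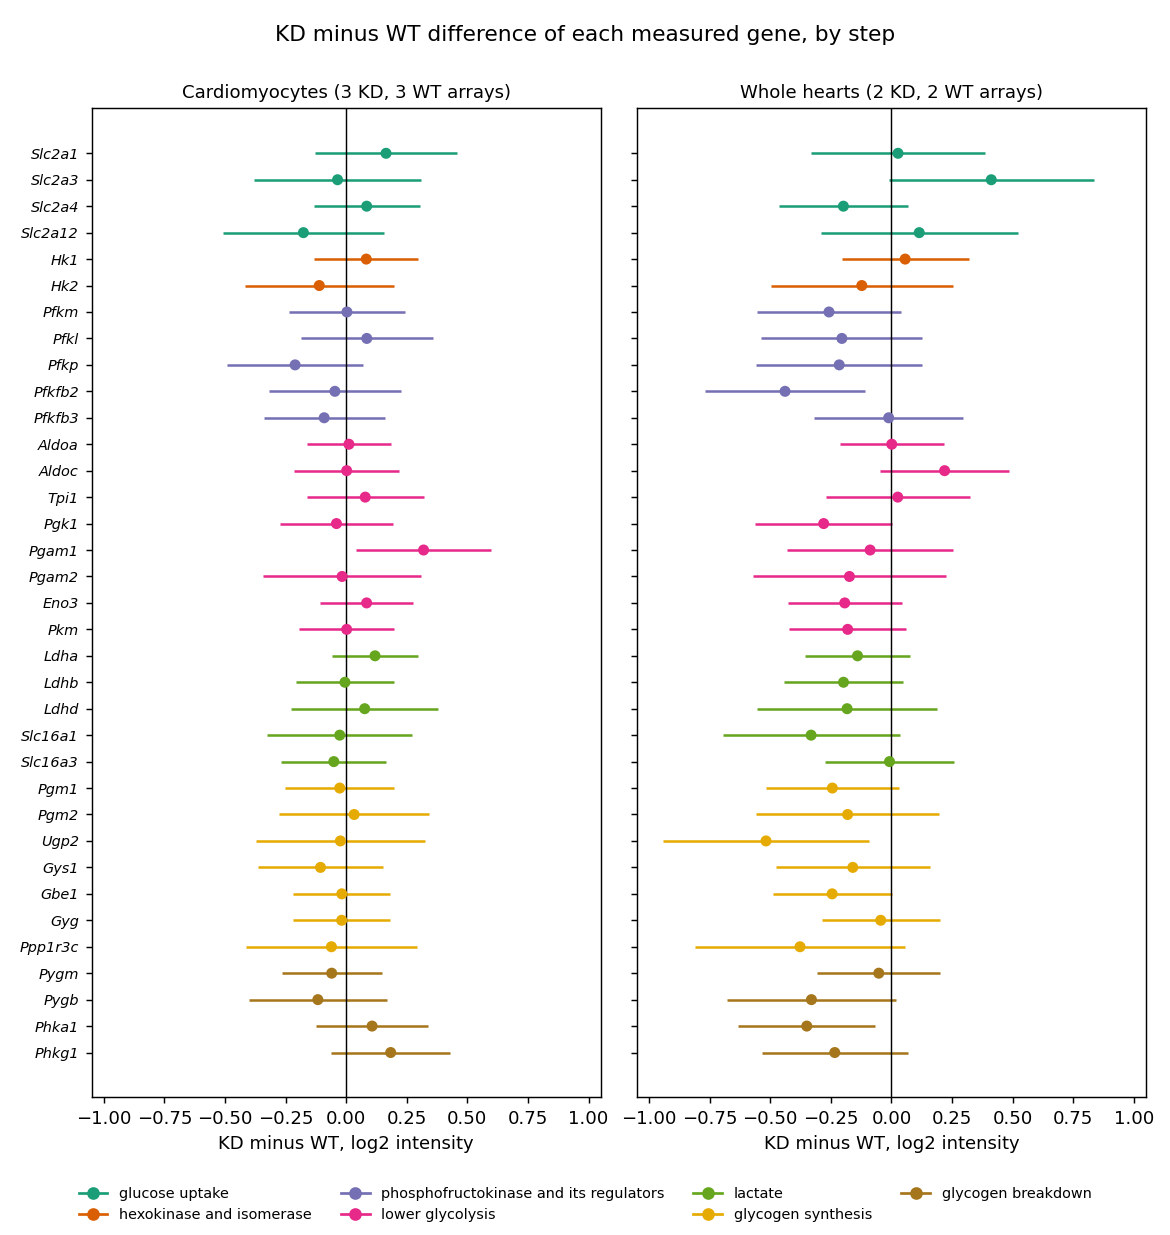
KD minus WT difference of the log2 intensity of each of the 35 genes (points) with its 95% confidence interval from limma (lines), in cardiomyocytes (3 KD and 3 WT arrays, left) and whole hearts (2 KD and 2 WT arrays, right), coloured by step. In cardiomyocytes the points lie on both sides of 0, and in hearts 28 of 35 lie below 0.

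The promoters of these genes were searched for 4 short motifs. ACGTG, the core of the site known for hypoxia-inducible factors, was searched on both strands in the 250 bases before each start that RefSeq lists on GRCm38.p6. It was found in 50.0% of 46 promoters of 33 of the genes, against 17.8% of 21262 promoters of all protein-coding genes in the table. CACGTG, the E-box sequence, which contains ACGTG, was in 15.2% against 6.63%, GGGCGG in 47.8% against 42.6%, and TATAAA in 2.17% against 11.6%. The median GC content was 60.0% against 55.6%, and its part in the ACGTG count was not tested. No test of these shares was run. A match is a description of letters, not a bound site. The motifs and the genes shown were chosen after the values were seen. The promoters of 4 genes are shown for genes described below, 5′ to 3′ on the strand of the gene, from the outermost start in the promoter table where it gives several (these starts can lie inside the gene span printed below, as for Ldha), with each ACGTG on either strand in capitals: Ldha, which has 5 matches counting both strands, Pgk1 with 2, Ugp2 with 1, and Phka1, which holds none in this window.
Ldha, chr7:46845554-46845803, plus strand: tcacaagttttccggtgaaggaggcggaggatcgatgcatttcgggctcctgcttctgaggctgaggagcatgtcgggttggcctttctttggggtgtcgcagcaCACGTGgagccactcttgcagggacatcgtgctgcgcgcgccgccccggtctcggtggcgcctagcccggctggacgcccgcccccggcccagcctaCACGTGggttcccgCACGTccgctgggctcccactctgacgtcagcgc
Pgk1, chrX:106186850-106187099, plus strand: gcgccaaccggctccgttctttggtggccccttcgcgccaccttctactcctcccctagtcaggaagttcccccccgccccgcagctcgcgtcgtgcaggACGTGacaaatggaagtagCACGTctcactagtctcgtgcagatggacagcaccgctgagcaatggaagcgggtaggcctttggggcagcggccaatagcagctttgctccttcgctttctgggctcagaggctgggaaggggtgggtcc
Ugp2, chr11:21371268-21371517, minus strand: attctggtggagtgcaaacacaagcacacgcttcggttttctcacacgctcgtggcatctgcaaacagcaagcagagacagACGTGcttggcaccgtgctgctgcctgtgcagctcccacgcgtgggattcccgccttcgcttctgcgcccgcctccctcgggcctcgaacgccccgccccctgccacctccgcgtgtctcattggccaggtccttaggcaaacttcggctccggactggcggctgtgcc
Phka1, chrX:102644247-102644496, minus strand: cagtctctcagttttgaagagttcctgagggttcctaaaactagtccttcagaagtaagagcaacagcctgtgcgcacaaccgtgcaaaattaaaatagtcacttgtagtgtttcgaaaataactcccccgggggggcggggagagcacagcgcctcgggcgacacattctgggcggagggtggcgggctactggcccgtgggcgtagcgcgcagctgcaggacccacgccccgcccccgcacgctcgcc

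The heart values were next counted by step, with no test between steps. All 5 genes of phosphofructokinase and its regulators were lower in KD hearts (median −0.22), as were all 5 lactate genes (median −0.18), all 7 genes of glycogen synthesis (median −0.24) and all 4 of glycogen breakdown (median −0.28). In the lower part of glycolysis 5 of 8 genes were lower (median −0.13), and among the glucose transporters 1 of 4 (median 0.07). These counts depend in part on scaling. With all arrays quantile normalized together, 4 of 5, 4 of 5, 6 of 7 and 3 of 4 genes of the first 4 groups were lower in KD hearts, since Pfkfb3, Ldha, Gyg and Pygm then lay above 0. The medians were also nearer 0 for some steps: −0.09 for the lactate genes with quantile normalization and −0.08 with the trend on signal level removed, −0.03 under both for the lower part of glycolysis, and −0.19 and −0.16 for glycogen synthesis. Those of phosphofructokinase and its regulators were −0.17 and −0.14, and of glycogen breakdown −0.30 and −0.23. Of the 28 lower genes, 22 had a difference over 1.5 times smaller, or of the other sign, when 1 heart array was left out, for 12 of them WT heart 1. The exceptions were Pfkfb2, Pgk1, Ugp2, Gys1, Gbe1 and Phka1. In the deposited cardiomyocyte values no step stood to one side by more than 0.05 in its median.

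The 4 measured glucose transporters went in both directions in hearts, and no test compared them with the other steps. Slc2a3, a high-affinity transporter best known from neurons and white blood cells, read 8.05 and 8.17 in KD hearts and 7.35 and 8.05 in WT hearts. Its difference of 0.41 (SE 0.20, unadjusted p = 0.0551, limma) rests on WT heart 1, the one low array, and was 0.06 without it. In cardiomyocytes Slc2a3 was dim, at 5.05, 5.27 and 5.0 in KD cells against 4.96, 5.24 and 5.23 in WT cells. Slc2a4, the insulin-responsive transporter of muscle and fat, read 10.98 and 10.96 in KD hearts and 11.29 and 11.05 in WT hearts, with neither KD value reaching the lower WT value (difference −0.20, SE 0.12, and −0.08 without WT heart 1). In cardiomyocytes it read 11.19, 11.05 and 10.93 in KD cells and 10.95, 11.02 and 10.95 in WT cells, and the groups overlapped (difference 0.08, SE 0.10). Slc2a1, the widely expressed basal transporter, read 9.09, 9.07 and 8.76 in KD cardiomyocytes and 9.08, 8.76 and 8.58 in WT cardiomyocytes (difference 0.16, SE 0.14). In hearts Slc2a1 differed by 0.03 (SE 0.17). Slc2a12, a further transporter found in heart and muscle, had the lowest difference of the group in cardiomyocytes (−0.18, SE 0.15, and −0.01 without KD array 2). In hearts both its KD values, 9.13 and 9.05, lay above the WT values of 9.03 and 8.92.

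Hexokinase, which phosphorylates glucose on entry, was measured through Hk1 and the muscle form Hk2. Hk2 read 10.26, 9.94 and 9.76 in KD cardiomyocytes and 10.03, 10.10 and 10.16 in WT cardiomyocytes (difference −0.11, SE 0.14). In hearts it read 10.09 and 10.20 in KD and 10.50 and 10.04 in WT, with overlapping groups (difference −0.12, SE 0.17). For Hk1 the probe set with the highest mean, used here by the rule, lists 1 cDNA record. That record is shared with probe sets annotated with both Rpl17, a ribosomal protein gene, and Hk1, of which there are 16. On 5 of the 6 cardiomyocyte arrays this set lay on the same side of its WT mean as the median of those 16. It did so on each heart array too, where that median was at most 0.03 from its WT mean. The brighter Hk1 set differed by 0.08 (SE 0.10) in cardiomyocytes and 0.06 (SE 0.12) in hearts, and whether it measures Hk1 was not tested. The dimmer Hk1 set lists RefSeq transcripts. On that set, examined after the values were seen, Hk1 read 9.42, 9.40 and 9.29 in KD cardiomyocytes and 9.10, 9.25 and 9.26 in WT cardiomyocytes, so the groups did not overlap (difference 0.16, SE 0.10, unadjusted p = 0.114, limma). In hearts it differed by 0.02.

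**Figure D2:**
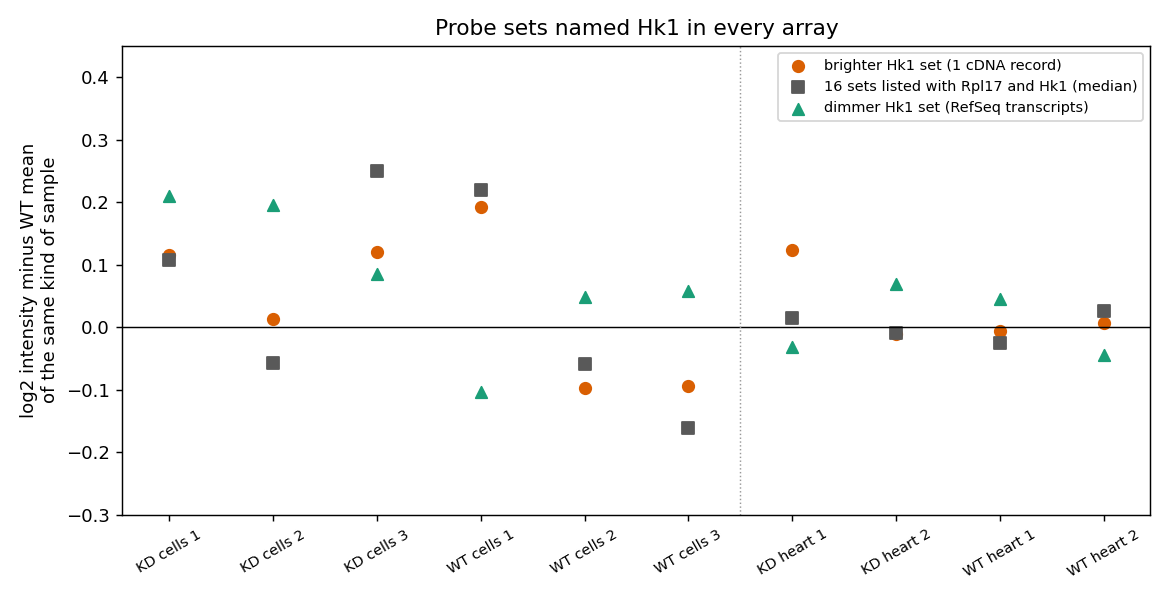
Log2 intensity of the probe sets named Hk1 in every array, relative to the WT mean of the same kind of sample: the brighter set (circles), the median of 16 sets listed with both Rpl17 and Hk1 (squares) and the dimmer set that lists RefSeq transcripts (triangles). The brighter set and the 16 sets are both high in WT cells 1 at 0.19 and 0.22, where the dimmer set is at −0.10.

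Phosphofructokinase commits glucose to glycolysis, and the bifunctional Pfkfb enzymes set the level of its activator. Pfkfb2 (chr1:130689043-130729253, GRCm38.p6), the heart form of these regulators, had the smallest unadjusted p of the 35 genes in hearts. It read 9.91 and 10.05 in KD hearts and 10.33 and 10.51 in WT hearts. Both KD hearts lay below both WT hearts, and the WT level was 1.36-fold that of KD (difference −0.44, SE 0.15, unadjusted p = 0.0135, adjusted p = 0.95, limma). In cardiomyocytes Pfkfb2 read 9.48, 9.27 and 9.24 in KD and 9.52, 9.11 and 9.49 in WT, with a difference of −0.05 (SE 0.13). The effects in cardiomyocytes and hearts differed by 0.39 (SE 0.20, unadjusted p = 0.0693, limma). Here and below, such a p-value compares kinds of sample whose labelling protocols differ, and the part of the protocol was not tested. Pfkfb3, the inducible form, was level between genotypes in hearts, at 8.47 and 8.44 in KD and 8.36 and 8.57 in WT. The log2 ratio of Pfkfb2 to Pfkfb3 was thereby lower by 0.43 in KD hearts, with both KD arrays below both WT arrays. This was the largest heart change of the isoform pairs, which were chosen after the values were seen. Heart arrays were also apart for the ratios of Pfkm to Pfkl (−0.05), Aldoa to Aldoc (−0.22) and Pygm to Pygb (0.28). How often ratios of other gene pairs are apart was not counted. With the trend on signal level removed, Pfkm and Pfkl differed by −0.12 and −0.14, and Aldoa and Aldoc by 0.14 and 0.17. Pygm and Pygb then differed by 0.08 and −0.21, and Pfkfb2 and Pfkfb3 by −0.35 and 0.01. In cardiomyocytes Pfkfb3 was dim and differed by −0.09 (SE 0.12).

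The phosphofructokinase isoforms were each a little lower in KD hearts, by −0.26 for the muscle form Pfkm, −0.20 for the liver form Pfkl and −0.22 for the platelet form Pfkp, and in each the KD and WT arrays overlapped. Each rests on 1 array: Pfkm was −0.06 and Pfkl −0.03 without WT heart 1, and Pfkp −0.01 without KD heart 2. Pfkm read 12.37 and 12.25 in KD hearts and 12.76 and 12.37 in WT hearts. Pfkp was the 1 gene of the 35 whose KD cardiomyocytes all lay below the WT cardiomyocytes, a pattern seen in 3.21% of all genes. It read 7.77, 7.45 and 7.69 in KD cells and 7.91, 7.79 and 7.84 in WT cells (difference −0.21, SE 0.13, unadjusted p = 0.127, limma), and the difference was −0.12 without KD array 2. Pfkl differed by 0.09 (SE 0.13) in cardiomyocytes and Pfkm by less than 0.01.

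In the lower part of glycolysis Pgam1 had the largest difference of the 35 genes in cardiomyocytes. Pgam1 (chr19:41911871-41918665, GRCm38.p6), the widely expressed phosphoglycerate mutase, read 9.17, 9.44 and 9.61 in KD cardiomyocytes and 9.24, 9.10 and 8.93 in WT cardiomyocytes. The KD arrays were higher on average, with KD array 1 inside the WT range (difference 0.32, SE 0.13, unadjusted p = 0.028, adjusted p = 1.00, limma). In hearts Pgam1 read 9.74 and 9.60 in KD and 9.86 and 9.66 in WT. The effects in cardiomyocytes and hearts differed by 0.41 (SE 0.20, unadjusted p = 0.0675, limma). Pgam2, the muscle form of the same enzyme, differed by −0.02 (SE 0.15) in cardiomyocytes, where KD array 3 at 11.56 was the highest and KD array 1 at 10.82 the lowest of all 6.

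Pgk1 (chrX:106187100-106203699, GRCm38.p6), which makes the first ATP of the payoff phase, read 11.80 and 11.65 in KD hearts and 12.06 and 11.94 in WT hearts. Both KD hearts lay below both WT hearts (difference −0.28, SE 0.13, unadjusted p = 0.0531, limma), while in cardiomyocytes the difference was −0.04 (SE 0.11). Muscle enolase Eno3, pyruvate kinase Pkm and Pgam2 also had KD hearts below WT hearts on every array, with differences of −0.19, −0.18 and −0.17. With the trend on signal level removed these were −0.06, −0.06 and −0.05, and the arrays of all 3 overlapped. On the other Pkm probe set the hearts overlapped as deposited, with a difference of −0.13. The aldolase isoforms were close together in difference once the trend on signal level was removed, at 0.14 for Aldoa and 0.17 for Aldoc. As deposited, Aldoa, the muscle form and one of the brightest genes on the arrays, read 13.49 and 13.67 in KD hearts and 13.57 and 13.59 in WT hearts. Aldoc, the brain form, was dim at 6.95 and 7.28 in KD hearts and 6.92 and 6.86 in WT hearts (difference 0.22, SE 0.12, unadjusted p = 0.0967, limma). Its KD arrays lay above its WT arrays as deposited and overlapped them with the trend removed, and the difference was 0.06 without KD heart 2. Tpi1, which interconverts the triose phosphates, differed by 0.08 in cardiomyocytes and 0.03 in hearts.

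**Figure D3:**
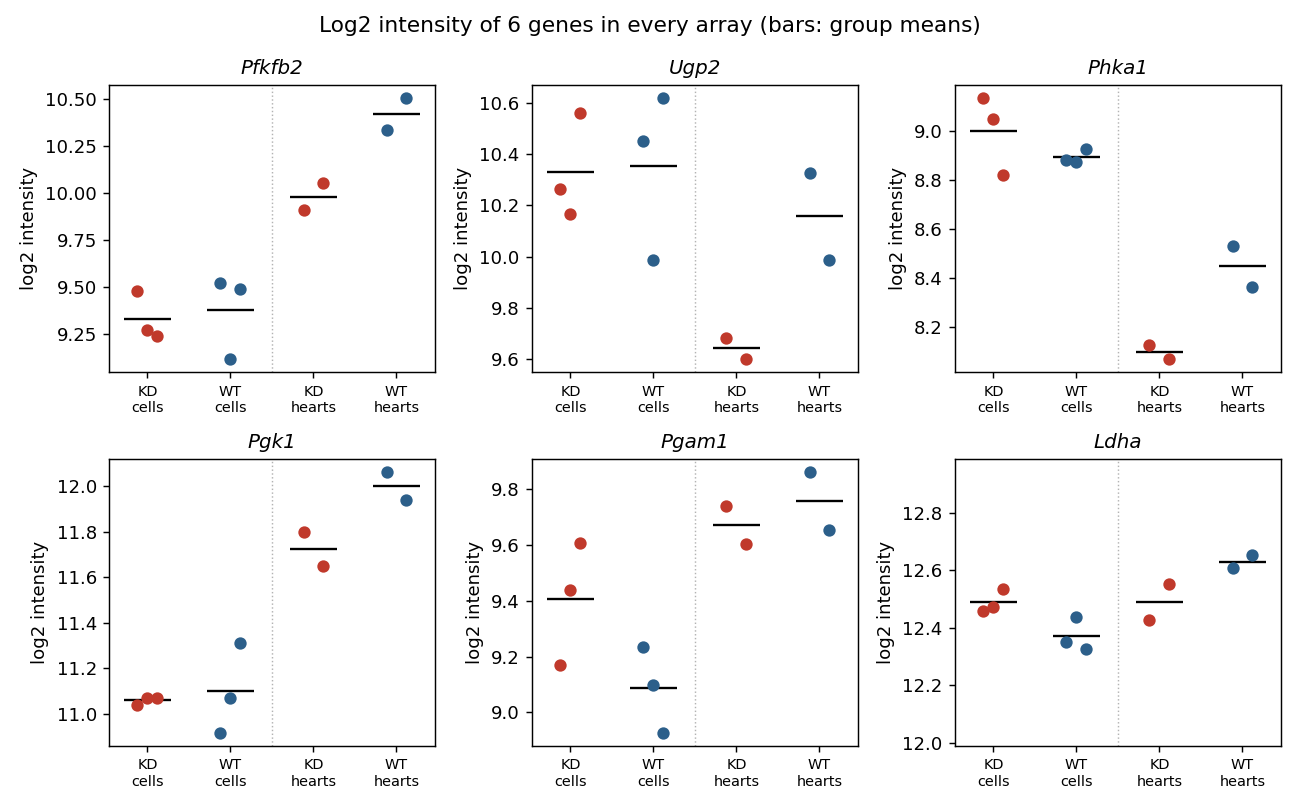
Log2 intensity of 6 genes in every array (points) with group means (bars), KD left of WT for cardiomyocytes (cells) and whole hearts. Axes do not start at 0. Pfkfb2, Ugp2, Phka1 and Pgk1 have both KD hearts below both WT hearts, Pgam1 is higher on average in KD cells, and Ldha lies above WT in KD cells and below WT in KD hearts.

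All 5 lactate genes were below WT in KD hearts in the deposited values. Ldha (chr7:46842274-46855627, GRCm38.p6), whose subunit favours making lactate from pyruvate, read 12.43 and 12.55 in KD hearts and 12.61 and 12.65 in WT hearts (difference −0.14, SE 0.10). In cardiomyocytes its KD arrays, at 12.46, 12.47 and 12.54, lay above the WT arrays at 12.35, 12.44 and 12.33 (difference 0.12, SE 0.08, unadjusted p = 0.166, limma). On the probe sets used, it was the 1 gene of the 35 with all KD cells above all WT cells, a pattern of 2.99% of all genes. The dimmer Hk1 set, not used by the rule, showed it too. That pattern together with both KD hearts below both WT hearts was seen in 0.466% of all genes. Ldhb, the heart form of lactate dehydrogenase, read 11.14 and 11.15 in KD hearts and 11.46 and 11.23 in WT hearts, and differed by less than 0.01 in cardiomyocytes. On the other Ldhb probe set the hearts overlapped, with a difference of −0.13. Ldhd, the mitochondrial D-lactate dehydrogenase, also had KD hearts below WT hearts (difference −0.18, SE 0.17). The lactate and pyruvate carrier Slc16a1 read 10.88 and 10.49 in KD hearts and 11.26 and 10.77 in WT hearts, which overlap (difference −0.33, SE 0.17, unadjusted p = 0.0718, limma). Without WT heart 1 the difference was −0.09. Slc16a3, the carrier typical of glycolytic cells, differed by −0.01 in hearts and −0.05 in cardiomyocytes.

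Glycogen synthesis held the largest heart difference of all 35 genes. Ugp2 (chr11:21321126-21371267, GRCm38.p6) makes UDP-glucose, the glucose donor for glycogen. It read 9.68 and 9.60 in KD hearts and 10.33 and 9.99 in WT hearts, so the groups did not overlap and the WT level was 1.43-fold that of KD (difference −0.52, SE 0.20, unadjusted p = 0.0212, adjusted p = 0.95, limma). In cardiomyocytes Ugp2 read 10.26, 10.17 and 10.56 in KD and 10.45, 9.99 and 10.62 in WT, with a difference of −0.02 (SE 0.16). The effects in cardiomyocytes and hearts differed by 0.49 (SE 0.25, unadjusted p = 0.0747, limma). Ppp1r3c, which targets protein phosphatase to glycogen, had the next largest heart difference within glycogen synthesis (−0.38, SE 0.20), and it was −0.14 without WT heart 1. Its arrays overlapped, at 9.01 and 8.71 in KD and 9.48 and 9.0 in WT.

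The branching enzyme Gbe1 read 10.15 and 10.10 in KD hearts and 10.39 and 10.36 in WT hearts, which did not overlap (difference −0.24, SE 0.11, unadjusted p = 0.0513, limma). Pgm1, the phosphoglucomutase that links glycolysis to glycogen, read 10.69 and 10.86 in KD hearts and 11.13 and 10.91 in WT hearts (difference −0.24, SE 0.13, and −0.14 without WT heart 1). Muscle glycogen synthase Gys1 was lower on both KD arrays as well, at 10.11 and 10.15 in KD and 10.33 and 10.25 in WT. The glycogen primer Gyg differed least of the group in hearts (−0.04, SE 0.11). In cardiomyocytes 6 of these 7 genes were below 0 and Pgm2 above, by amounts between −0.11 for Gys1 and 0.03 for Pgm2.

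Phosphorylase kinase, which switches glycogen phosphorylase on, was represented by its subunits Phka1 and Phkg1. Phka1 (chrX:102513975-102644301, GRCm38.p6), a regulatory subunit of the muscle enzyme, read 8.13 and 8.07 in KD hearts and 8.53 and 8.37 in WT hearts (difference −0.35, SE 0.13, unadjusted p = 0.0191, adjusted p = 0.95, limma). In cardiomyocytes it read 9.14, 9.05 and 8.82 in KD and 8.88, 8.87 and 8.93 in WT, with 2 of 3 KD arrays above the WT arrays (difference 0.11, SE 0.11). The effect in cardiomyocytes exceeded that in hearts by 0.46 (SE 0.17, unadjusted p = 0.018, adjusted p = 1.00, limma). Phkg1, the catalytic subunit, read 7.54 and 7.71 in KD hearts against 7.82 and 7.89 in WT hearts. Its cardiomyocyte values were 7.19, 7.19 and 7.45 in KD against 7.01, 7.27 and 7.01 in WT, and its effects differed by 0.42 (SE 0.18, unadjusted p = 0.0377, limma). For this difference of effects, limma called 0 of 19938 genes (0%), and 696 (3.49%) had an unadjusted p under 0.05, 1.74% with the higher effect in cardiomyocytes and 1.76% with the lower. Phka1 and Phkg1 were the 2 of the 35 with such a p. The effect in cardiomyocytes was below that in hearts for 6 of the 35, where it was for 51.2% of all genes. Of the phosphorylase isoforms in hearts, Pygm, the muscle form, differed by −0.05 (SE 0.12) and Pygb, the brain form, by −0.33 (SE 0.16), which was −0.15 without KD heart 2. Pygm was 0.08 with the trend on signal level removed.

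Of the 35 genes, 15 had both KD hearts below both WT hearts (42.9%), where 15.4% of all genes did, and 2, Slc2a12 and Aldoc, had both above (5.71%), where 14.2% did. Signal level moved with this count. Ldhb and Pkm are among the 15 on their brighter probe sets, and their arrays overlapped on the other sets. Of the 35 genes, 23 are in the brightest 10% of all genes in hearts. At that level 73.2% of all genes were lower in KD hearts, the median difference was −0.09, and 33.3% had KD arrays entirely below WT arrays. Of the 23, 20 were lower, with a median of −0.19, and 12 (52.2%) had KD arrays entirely below. With the trend of the difference on signal level removed by loess, the median of the 35 in hearts was −0.07, with 25 lower, and 8 (22.9%) had KD arrays entirely below where 16.2% of all genes did. Slc2a12, Aldoa and Hk1 on its brighter set, 3 of the 35 (8.57%), then had KD arrays entirely above, where 11.9% of all genes did. The 8 were Pfkfb2, Pgk1, Ldhd, Ugp2, Gys1, Gbe1, Phka1 and Phkg1, and Pfkfb2, Ugp2 and Phka1 then differed by −0.35, −0.44 and −0.34. The split by brightness was made after the values were seen. In cardiomyocytes the brightest 10% of genes had a median of 0.01.

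**Figure D4:**
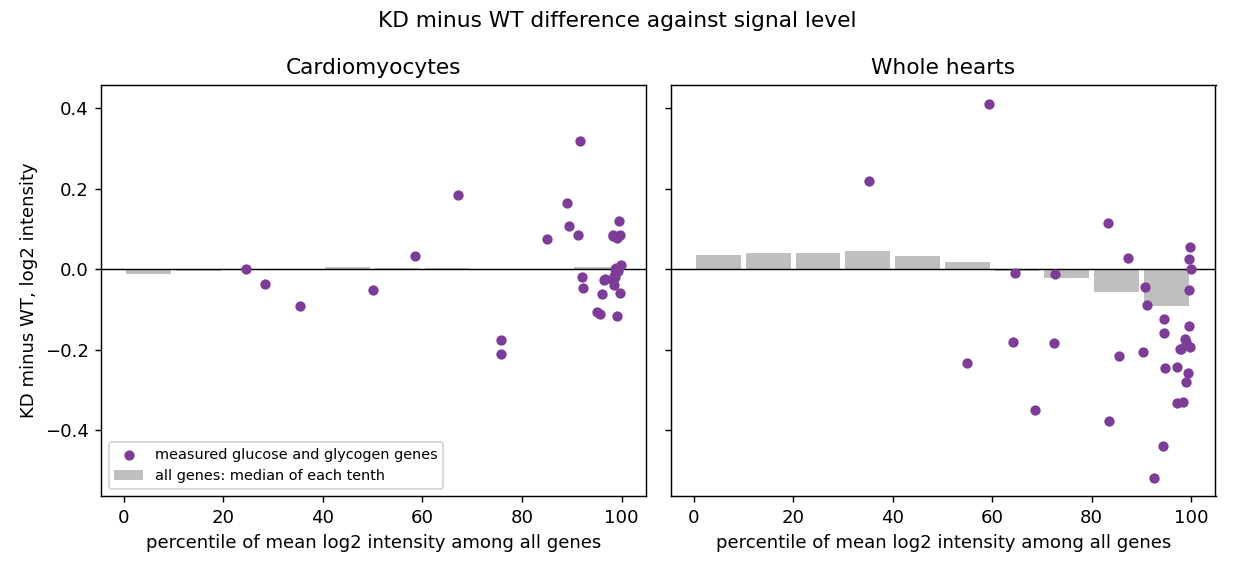
KD minus WT difference in log2 intensity against the percentile of a gene's mean log2 intensity among all genes, for the 35 genes (points) and as the median of each of 10 equal bins of all genes by level (grey bars), in cardiomyocytes (left) and hearts (right). In hearts the bars lie lower at higher signal, at −0.09 in the brightest bin, where 23 of the 35 genes lie.

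Markers of cell types were measured on the same arrays. All 10 cardiomyocyte markers were lower in KD hearts (median −0.10). All 10 are in the brightest 10% of genes, whose median is −0.09. Also lower were 7 of 7 fibroblast markers (median −0.31), 6 of 6 endothelial markers (median −0.21), 5 of 5 adipocyte markers (median −0.20) and 4 of 4 smooth muscle markers (median −0.17). All 6 endothelial markers are in the brightest 10% of genes as well, where 73.2% of all genes were lower in KD hearts. So are the fibroblast markers except Pdgfra and Postn, at percentiles 84.2 and 83.3. Higher in KD hearts were 10 of 11 skeletal muscle markers (median 0.08) and 5 of 7 macrophage markers (median 0.07). In cardiomyocytes 7 of 7 macrophage markers were lower in KD (median −0.26), with log2 sums of 8.61, 8.79 and 8.56 in KD cells and 8.97, 8.58 and 9.56 in WT cells, so that WT array 2 lay within the KD range and WT array 3 was the highest. In hearts the 2 measured red cell markers were higher, with log2 sums of 12.40 and 12.63 in KD hearts and 11.44 and 12.11 in WT hearts. Their part in the differences of the glucose and glycogen genes was not tested, and fewer cells of a type cannot be told apart from less RNA per cell. The mean of the 35 genes relative to WT was −0.14 in KD heart 1 and −0.15 in KD heart 2. The log2 sums of the T cell markers on these arrays were 13.68 and 10.33. The mean of the cardiomyocyte markers relative to WT was −0.16 and −0.06 on the same arrays, and the part of either was not tested. Without KD heart 1 the median over the 35 was −0.15 with 28 lower. The WT hearts themselves lay at 0.06 and −0.06, so WT heart 2 is nearer the KD hearts, and the median was −0.09 without WT heart 1.

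A further 44 of 47 listed genes of these pathways were measured, and none passed the test: in hearts 17 were higher and 26 lower, with a median of −0.01, and in cardiomyocytes 26 were higher and 18 lower, with a median of 0.01. Bpgm, which makes the bisphosphoglycerate that lowers oxygen affinity in red cells, had the smallest unadjusted p in both. It read 10.50 and 10.86 in KD hearts and 9.61 and 10.08 in WT hearts (difference 0.83, SE 0.17, unadjusted p = 2.49e-04, adjusted p = 0.713, limma). The red cell markers Alas2 and Slc4a1 were also higher in KD hearts, by 0.76 and 0.55, and their part in the Bpgm difference was not tested. In cardiomyocytes Bpgm read 6.19, 6.04 and 6.27 in KD and 5.81, 5.85 and 5.76 in WT (difference 0.36, SE 0.14, unadjusted p = 0.0198, limma), with Alas2 different by 0.04 and Slc4a1 by 0.14. Of the other phosphorylase kinase subunits, Phkb, the beta subunit, was lower in KD in both kinds of sample without overlap. It differed by −0.17 in cardiomyocytes and −0.19 in hearts (unadjusted p = 0.104 and 0.142, limma). Such a pattern was seen in 3.21% of all genes in cardiomyocytes and 15.4% in hearts, and the share with both was not counted. The effects in cardiomyocytes and hearts differed by 0.02 (SE 0.16) for Phkb, by less than 0.01 (SE 0.17) for the regulatory subunit Phka2 and by 0.18 (SE 0.18) for the catalytic subunit Phkg2, values given because Phka1 and Phkg1 are described above. Pgm5, a phosphoglucomutase relative found at muscle adhesion sites, differed by −0.25 in hearts, and the neuronal enolase Eno2 by −0.17 and the transporter Slc2a10 by −0.18 in cardiomyocytes.

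Cardiomyocytes and whole hearts were set side by side for description alone, since their labelling protocols differ and their array medians lie apart, so that protocol and kind of sample cannot be told apart. Of the 35 genes, 6 were higher in cardiomyocytes than in hearts in both genotypes under each of 3 scalings (centred on array medians, quantile normalized, as deposited), as were 6.43% of all genes. These were Gyg, by 1.61 to 2.98, Ppp1r3c, by 0.95 to 2.61, Ldhb, by 0.71 to 2.25, Phka1, by 0.45 to 2.25, Ugp2, by 0.20 to 2.04, and Pygb, by 0.15 to 1.72. Genes of glycogen synthesis and breakdown are 5 of these 6 and 11 of the 35, and no test of that share was run. Lower in cardiomyocytes throughout, as were 33.1% of all genes, were Slc2a3, Hk1 on its brighter set, Pfkp, Pfkfb3, Aldoc and Slc16a3. Pfkfb3 was lower by −3.01 to −1.61 and Slc2a3 by −3.00 to −1.19. For the other 23 genes the direction depended on the scaling.

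**Figure D5:**
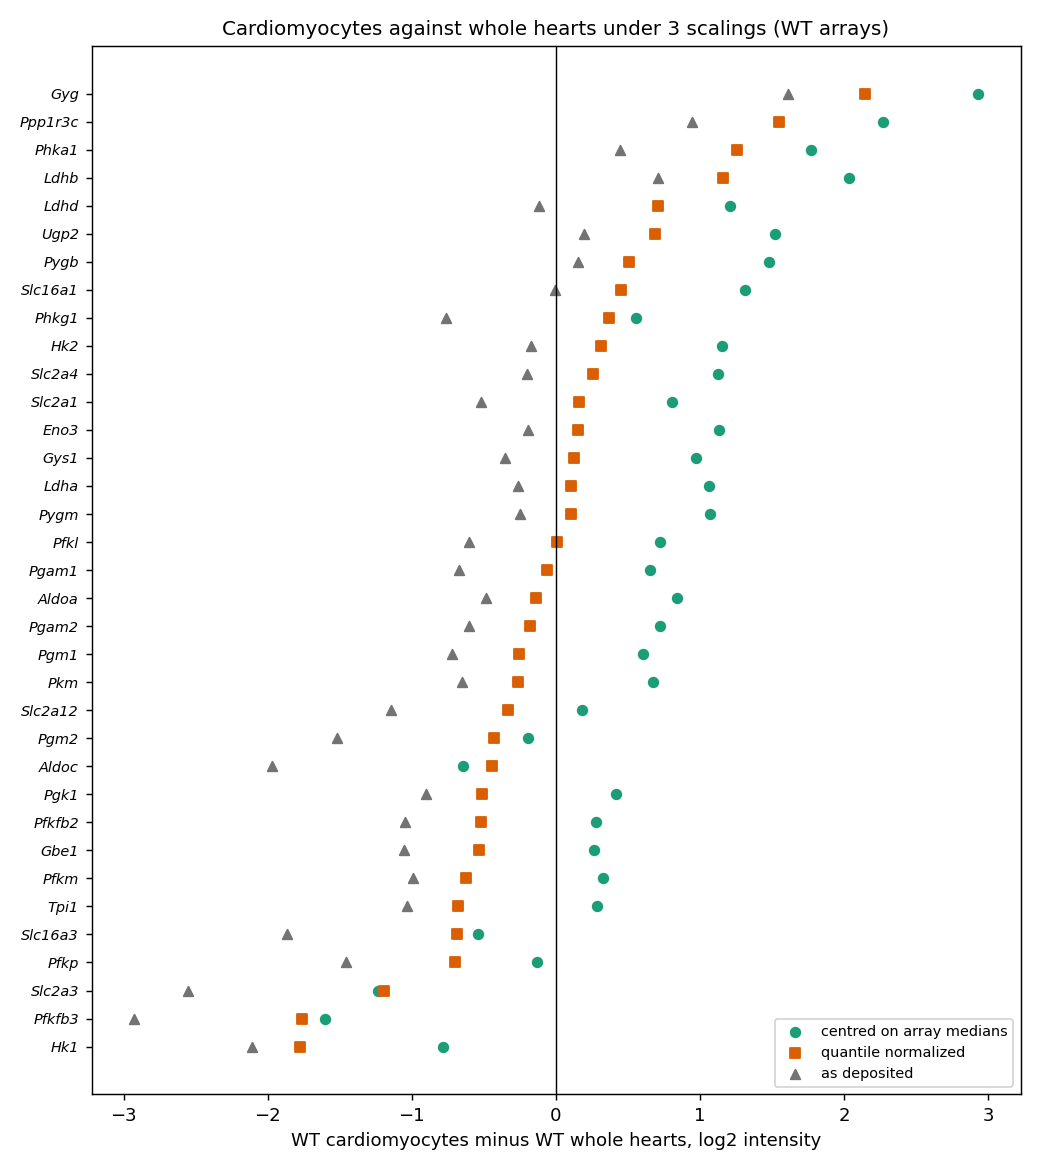
WT cardiomyocytes minus WT whole hearts in log2 intensity for each of the 35 genes under 3 scalings: centred on array medians (circles), quantile normalized (squares) and as deposited (triangles). Gyg, Ppp1r3c, Phka1, Ldhb, Ugp2 and Pygb lie above 0 under all 3, and Hk1, Pfkfb3, Slc2a3, Pfkp, Slc16a3 and Aldoc below 0.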

How the data were processed

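The authors deposited log2 intensities per probe set from Affymetrix arrays, and the submitters' processing notes name RMA and Partek, with versions and genome build not given in the sources used here. Of 35556 probe sets, 21789 carry 1 gene symbol in the platform annotation, 1621 several and 12146 none. Those with 1 symbol gave 19938 genes, taking the probe set with the highest mean. All 35 genes matched RefSeq GRCm38.p6 by Entrez ID with the same symbol.

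The main test was limma 3.58.1 in R 4.3.3 (lmFit, eBayes with trend) on the deposited log2 values, with 4 group means over all 10 arrays, 6 residual and 6.81 prior degrees of freedom, two-sided, and Benjamini-Hochberg adjustment over 19938 genes at 0.05. Expression levels were not tested between cardiomyocytes and hearts. The KD minus WT difference in cardiomyocytes was tested against that in hearts in the same fit. That test compares kinds of sample whose labelling protocols and array medians differ. Genes with full values were those with KD and WT arrays apart and an unadjusted p under 0.1, those with the 5 smallest p in a comparison, and the extremes of each step; up to 4 further pathway genes per comparison were named by p.

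The genes and lists were chosen with earlier results of these data known. Isoform pairs, promoter motifs, the second Hk1 probe set and the split by brightness were chosen after values were seen.

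The fit was tested on simulated data with known changes. A first simulation, with each gene's own residual spread, recovered fewer of the 2-fold changes in hearts than the 80% set beforehand. It was rerun with moderated spreads, an easier case, and then passed for 2-fold changes. Both runs are kept. Of 1.5-fold changes in hearts, 40.1% were recovered with moderated spreads and 30.8% with each gene's own spread. In cardiomyocytes these shares were 74.9% and 57.6%. Heart differences of the size seen for the glucose and glycogen genes, at most 1.43-fold (Ugp2), would thus often be missed. Replicates are separate arrays of pooled RNA, and the p-values reflect variation among these arrays, part of which can be technical.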

Additional observations from a re-analysis of the deposited data

Results flagged for a closer look

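Ldha was the 1 result of the 35 genes in which every KD array moved one way in cardiomyocytes and the opposite way in hearts. Its KD minus WT difference was 0.12 in cardiomyocytes and −0.14 in hearts, so that the first exceeds the second by 0.26 (SE 0.13, unadjusted p = 0.0649, adjusted p = 0.999, limma). The same pattern was seen in 93 of 19938 genes (0.466%). The heart difference was −0.01 with the trend on signal level removed and 0.01 with quantile normalization.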

How the results depend on the processing

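None of the 35 genes was called under any alternative run. In hearts 1 gene was called with the replicate block, and between 0 and 303 when 1 array was left out (303 without KD heart 2, 2 without WT heart 1, 1 without KD heart 1). For the difference between the effects the count was 0 to 237 when 1 array was left out (237 without KD heart 2, 2 without WT heart 1). In cardiomyocytes 0 genes were called under each. The median of the 35 genes in hearts was −0.094 with quantile normalization, −0.072 with the loess trend removed and −0.25 to −0.094 when 1 array was left out. In cardiomyocytes it was −0.0095 to 0.026 when 1 array was left out. The replicate block changed no call among the 35 genes. It left both medians as they were, which the balanced design fixes in advance. Whether replicate numbers pair the samples was not tested. Same-numbered arrays' deviations from their group means correlated at 0.15, 0.13 and −0.05 in cardiomyocytes and 0.23 in hearts. Differently numbered arrays correlated at −0.19 to 0.07 in cardiomyocytes and at −0.23 in hearts. With 2 arrays per group the heart values can only mirror each other. Between cardiomyocytes and hearts the median difference of the 35 genes, 0.97 in KD and 0.72 in WT with centred arrays, was −0.033 and −0.061 after quantile normalization and −0.38 and −0.60 as deposited. The number of genes lower in KD stayed within 1.5 times under each alternative run. Fits with each probe set of a gene, and with the other Hk1 set, were added after the data were seen.

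The sign of a difference turned in 33 of 83 single-gene results examined, none of them called as deposited. Quantile normalization gave Aldoa −0.030, Pfkm −0.016 in cardiomyocytes and Gyg 0.011, Ldha 0.0060, Pfkfb3 0.0029, Pygm 0.089 in hearts. Centring gave Aldoc −0.0047, Pfkm −0.0036, Pkm −0.0047 in cardiomyocytes and Aldoa −0.031, Slc2a1 −0.0053, Tpi1 −0.0064 in hearts. Removing the loess trend gave Aldoa −0.013, Pfkm −0.015, Pkm −0.015 in cardiomyocytes and Gyg 0.025, Pfkfb3 0.0062, Pygm 0.084 in hearts. Array weights gave Gyg 0.021, Pfkm −0.034, Pgam2 0.12, Pkm −0.019, Ppp1r3c 0.024, Ugp2 0.059 in cardiomyocytes. Leaving out 1 array gave ranges across 0 in cardiomyocytes for Aldoa −0.016 to 0.048, Aldoc −0.013 to 0.018, Gbe1 −0.052 to 0.032, Gyg −0.076 to 0.028, Gys1 −0.20 to 0.010, Hk2 −0.25 to 0.0018, Ldhb −0.051 to 0.032, Ldhd −0.063 to 0.19, Pfkfb2 −0.18 to 0.026, Pfkfb3 −0.17 to 0.032. It also did for Pfkm −0.060 to 0.040, Pgam2 −0.22 to 0.15, Pgk1 −0.13 to 0.066, Pgm1 −0.072 to 0.026, Pgm2 −0.13 to 0.15, Pkm −0.034 to 0.030, Ppp1r3c −0.16 to 0.094, Slc16a1 −0.072 to 0.047, Slc16a3 −0.12 to 0.028, Slc2a3 −0.13 to 0.016, Ugp2 −0.21 to 0.11. In hearts the ranges were Aldoa −0.088 to 0.091, Hk1 −0.011 to 0.12, Hk2 −0.36 to 0.11, Pfkfb3 −0.11 to 0.090, Pgam1 −0.19 to 0.016, Pygm −0.19 to 0.082, Slc16a3 −0.063 to 0.047, Slc2a1 −0.049 to 0.10, Tpi1 −0.16 to 0.22. Emb ranged over −0.28 to 1.66. The causes were not tested. Array number limits all these values, since 2 arrays stand against 2 in hearts.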

Other observations

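Emb, a partner protein of the lactate carriers, read 8.61 in KD heart 1 and 6.68 in KD heart 2, against 6.78 and 7.12 in the WT hearts. KD heart 1 is the array with the highest summed level of thymocyte and T cell markers. The difference of Emb was 0.69 over both KD hearts, −0.28 without KD heart 1, and 1.66 without KD heart 2 (adjusted p = 0.00309, limma, with the lone KD array assumed to vary like the other groups). The part of the T cell markers in it was not tested.

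For 5 of the 35 genes several probe sets carry the symbol alone. Over the probe sets of Pgam1 the difference in cardiomyocytes was 0.32 or 0.33, and over those of Pgk1 the difference in hearts was −0.28 or −0.26. For both genes some of these sets hold identical values on every array, so they are not independent measurements. For Ldhb and Pkm, KD hearts lay entirely below WT hearts on the brighter set and overlapped them on the other set.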
